A study of Talaromyces verruculosus with 6 samples.

Results

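Pectin-induced genes of Talaromyces verruculosus whose level in the third control culture stayed under 2 times that in the first were described here. A gene belonged to this group when its mean level was at least 1 RPKM (reads per kilobase of coding length and sequencing depth) in control and at least 3 times higher with pectin, when its lowest pectin library lay above its highest control library, and when control 3 held less than 2 times the level of control 1. Of 11326 annotated genes, 113 met the rule, and in 40 of these control 3 was at or over control 1. The members were thus chosen by their RPKM in all 6 libraries, on the contrast of pectin with control, so every difference between those groups below describes genes chosen for it and carries no test. Strain TS63-9 of this filamentous fungus was grown as actively growing mycelia in basic medium, inoculated from plugs of a plate culture, with pectin at 5 g/L in 3 cultures and without pectin in 3 control cultures. RNA was taken after 24 h and sequenced after poly-A selection. All 6 libraries come from 1 strain, and the labels give no batch.

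Pectin is a plant cell wall polysaccharide rich in galacturonic acid, with a backbone of homogalacturonan and rhamnogalacturonan and side chains of arabinan and galactan. Filamentous fungi that live on it secrete polygalacturonases, pectin and pectate lyases, esterases and side-chain hydrolases, take up the released sugars through membrane transporters, and break galacturonate down inside the cell; in aspergilli, many of these genes are switched on together when galacturonate is available. The files give locus tags and positions but no product names, so none of these roles is assigned to any of the 113 genes. Tags are given for the member with the highest level with pectin and the member with the largest ratio, and other members are given by contig, position, coding length and number of exons.

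The libraries held 10320372 to 11393959 reads on annotated exons, and between 10394 and 10548 genes had at least 1 exon read. Reads on genes made up 76.6% to 79.0% of the reads by which the deposited RPKM had been scaled. The level of a typical gene was slightly lower with pectin on this scale, with a median log2 ratio of −0.16 over the 8578 genes with at least 1 RPKM in control. Of these 8578 genes, 170 had a ratio of at least 3, and 9 of them were left out because the groups overlapped. Another 48 genes met every condition except that control 3 held at least 2 times the level of control 1, and they are used below as the closest comparison.

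Together the 113 genes took 0.510% of exon reads in control 1, 0.366% in control 2 and 0.422% in control 3, against 3.13%, 2.84% and 2.24% in pectin 1, 2 and 3. All 3 pectin values lay above all 3 control values, as the choice of genes fixes, and control 1 and pectin 1 were the highest of their groups. In bulk mycelium, more hyphae that express a gene and more of its RNA per hypha cannot be told apart. Summed levels were 1796 ± 227 RPKM in control and 13345 ± 1954 RPKM with pectin (SD, n = 3 each). Much of this pectin level came from few genes: the 5 most abundant members made up 48.7% of the summed mean, and the most abundant alone 19.9%, beside 5.94% in control. Without those 5 genes the remaining 108 still went from 1173 ± 162 to 6847 ± 860 RPKM (SD, n = 3 each).

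**Figure D1:**
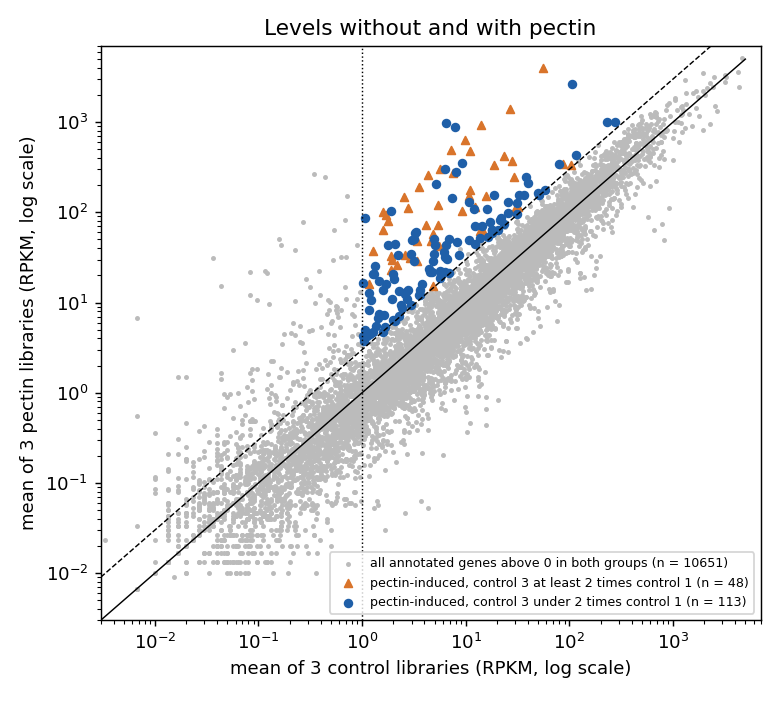
Mean RPKM of the 3 control libraries (x axis, log scale) against the mean of the 3 pectin libraries (y axis, log scale), with 1 point per gene. Blue points are the 113 members, orange triangles the 48 induced genes raised in control 3, and grey points all genes above 0 in both groups; the solid line marks equal levels, the dashed line a ratio of 3 and the dotted line 1 RPKM in control.

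Most members were modestly expressed without pectin. Mean control levels ran from 1.02 to 273 RPKM with a median of 4.90, against a median of 9.66 over all annotated genes and 15.7 over the genes tested. The rule asked for at least 1 RPKM in control and a high ratio, and both conditions bear on these control levels. With 1 RPKM as the entry level, 58 members lay under 5 RPKM, 21 between 5 and 10, 26 between 10 and 50, and 8 at 50 or more. With pectin the range was 3.79 to 2656 RPKM with a median of 34.2, and 26 members reached 100 RPKM while 20 were under 10. The median member thus moved from rank 6819 of 11326 genes in control to rank 2580 with pectin.

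Ratios of the group means ran from 3.00 to 149, with a median of 4.80. They were concentrated near the entry value: 41 members lay between 3 and 4, 19 between 4 and 5, 26 between 5 and 10, 16 between 10 and 20, 7 between 20 and 50, and 4 at 50 or more. In the 48 genes raised in control 3, 36 had a ratio of at least 10 against 27 of the 113 members, and the median ratio was 14.8; the choice of genes by the same libraries bears on both, and the difference was not tested. All 113 members passed the filter on low counts. Of them 110 were called higher by edgeR (quasi-likelihood test, Benjamini-Hochberg adjusted p under 0.05), beside 9.2% of the 9177 genes tested, and nothing is read from this because the rule used the same contrast. The fitted log2 fold changes of the members had a median of 2.43 and ran from 1.73 to 7.41, beside a median of −0.01 over all genes tested. The 3 members that were not called had ratios of 3.33 to 3.75, while most of the 41 members between 3 and 4 were called.

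At each limit of the rule, the closest genes inside and outside mostly differed little in the value that the limit cuts. The 3 members with the smallest ratios had ratios of 3.00, 3.01 and 3.03, and the 3 genes that missed only this condition most closely had 2.99, 2.97 and 2.96. On the limit set by the controls, the members closest to it had 1.99, 1.95 and 1.91 times the level of control 1 in control 3, and the genes just past it had 2.09, 2.16 and 2.24 times. Ratios of pectin to control were 3.56, 3.68 and 3.75 in these members, and 58.3, 11.3 and 3.58 in these genes past the limit. The lowest control means inside were 1.02, 1.03 and 1.03 RPKM, and the highest outside 0.977, 0.957 and 0.903. For the separation of the groups, the lowest pectin library was 1.02, 1.06 and 1.09 times the highest control in the closest members, and 0.998, 0.992 and 0.585 times in the closest genes outside. In 84 members that separation was at least 2-fold, and in 9 it was under 1.5-fold. A further 223 genes had the same ratio and separation but averaged under 1 RPKM in control.

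ZTR_02225 had the highest level with pectin. It lies on LHCL01000001 from 123132 to 124703 on the plus strand and has 11 exons in 1014 coding bases, or 92.2 bases per exon; 121 of all 11326 genes, and 2 of the 113, have at least 11. Its level was 120.5, 100.48 and 99.1 RPKM in controls 1 to 3 and 3338, 2560 and 2069 RPKM in pectin 1 to 3. The controls were close together, and every pectin library was at least 17.2 times the highest of them, with pectin 1 the highest and pectin 3 the lowest. Group means were 107 ± 11.98 RPKM without and 2656 ± 640 RPKM with pectin (SD, n = 3 each). Their ratio was 24.9, and the fitted log2 fold change was 4.79 ± 0.30 (standard error). This gene moved from rank 880 to rank 11 of all annotated genes. Reads across exon junctions made up 97.4% of its exon reads in control and 96.6% with pectin.

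The largest ratio belonged to ZTR_05992, on LHCL01000011 from 143866 to 145394, a minus-strand gene of 4 exons and 1356 coding bases. Its level was 10.4, 4.62 and 4.47 RPKM in controls 1 to 3 and 1086, 1162 and 654 RPKM in pectin 1 to 3. Control 1 was well above the other controls, and pectin 3 was clearly the lowest of the pectin libraries. Its means of 6.50 ± 3.39 RPKM without and 967 ± 274 RPKM with pectin (SD, n = 3 each) gave a ratio of 149, and the fitted log2 fold change was 7.41 ± 0.47 (standard error). In reads, 106 to 228 per control library stood against 14396 to 26000 per pectin library. It moved from rank 6382 to rank 60. Neither flanking gene was called by edgeR: the left neighbour went from 13.6 to 22.9 RPKM (edgeR adjusted p = 0.239) and the right neighbour from 27.6 to 32.6 RPKM (edgeR adjusted p = 0.0935).

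Among the 12 members with the highest levels, 2 kinds of profile were seen. Some were already abundant in control and had small ratios. The 3-exon gene of 711 coding bases on LHCL01000015 from 189958 to 190800 had 186, 262 and 237 RPKM in control and 808, 1065 and 1150 RPKM with pectin, a ratio of 4.41. In this gene pectin 1 and control 1 were the lowest of their groups, the reverse of the pattern of ZTR_02225. The 3-exon gene of 2646 coding bases on LHCL01000046 from 236364 to 239115, the last annotated gene of its contig, had 358, 180.2 and 282 RPKM in control and 1102, 1047 and 830.2 RPKM with pectin, a ratio of 3.63. A 6-exon gene of equal coding length on LHCL01000025 from 149464 to 152790 had 150, 86.5 and 113 RPKM in control against 520, 409 and 352 RPKM with pectin. These genes had ranks of 304 to 794 in control, and the lowest pectin library was 2.32 to 3.08 times the highest control.

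Others were low in control and had large ratios. The 4-exon gene on LHCL01000026 from 128807 to 130511 had 8.56, 4.59 and 5.79 RPKM in control and 431, 248 and 222 RPKM with pectin, a ratio of 47.6. Its pectin 1 level stood well above the other pectin libraries. The 3-exon gene on LHCL01000047 from 135980 to 137087 had 6.75, 5.43 and 12.1 RPKM in control and 397, 231 and 214 RPKM with pectin, a ratio of 34.7. Here control 3 was the highest control while pectin 3 was the lowest pectin library. The 2-exon gene on LHCL01000275 from 3482 to 4770, 1 of 2 genes annotated on that contig and next in level after these 12, had 4.68, 3.70 and 7.09 RPKM in control and 197, 195 and 225 RPKM with pectin, a ratio of 39.9, and its pectin libraries differed little. Of the other members among the highest, the 2-exon gene on LHCL01000410 from 64 to 878, alone on its contig, had 81.6, 82.1 and 73.9 RPKM in control and 331, 336 and 369 RPKM with pectin. Its libraries were the most even of the 12. The 4-exon gene on LHCL01000299 from 2982 to 4516 had 36.3, 36.0 and 42.0 RPKM in control and 246, 215 and 284 RPKM with pectin, a ratio of 6.52. The 4-exon gene on LHCL01000028 from 24264 to 26607 had 42.2, 33.1 and 43.5 RPKM in control and 273, 193 and 162 RPKM with pectin, a ratio of 5.29.

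**Figure D2:**
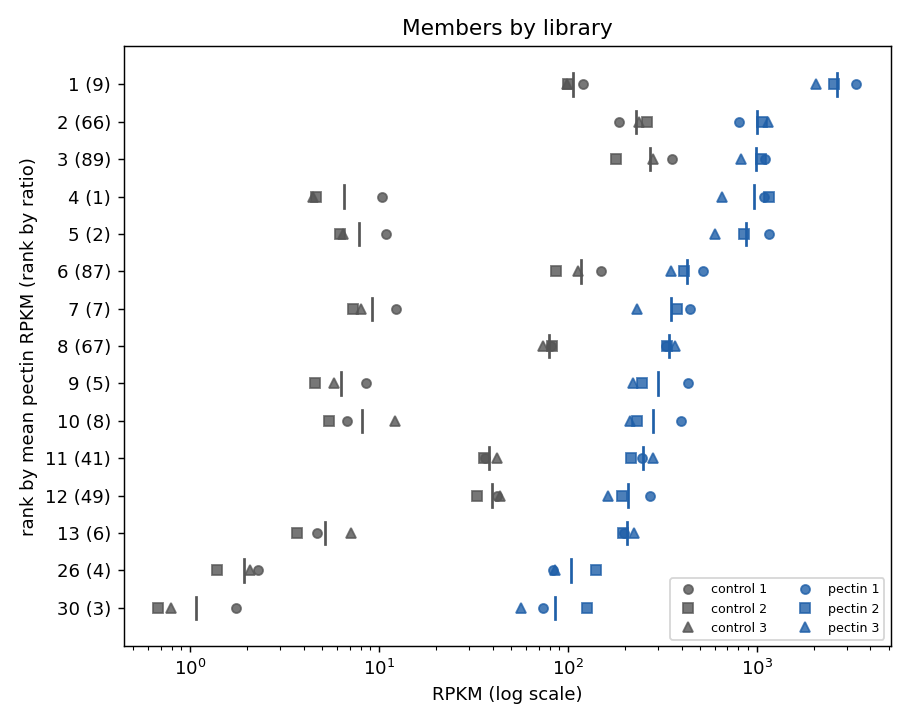
RPKM (x axis, log scale) in each of the 6 libraries for the 15 members that rank among the 12 highest by mean pectin level or the 8 highest by ratio (y axis, rank by level with the rank by ratio in brackets). Grey symbols are control and blue symbols pectin libraries, the symbol shape gives the replicate number and the short bars are group means; in every row all blue symbols lie to the right of all grey ones.

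Libraries of a single group differed among themselves in these genes, and the rule bears on this for the controls. Control 1 was the highest control in 69 of the 113 members, control 3 in 29 and control 2 in 15; control 2 was the lowest in 70. Over the 8578 genes with at least 1 RPKM in control, control 1 was the highest in 56.4%, so the 61.1% seen in the members is near the general level. The rule used the pectin libraries only through their mean and their lowest value. Its limit on control 3 over control 1 can still bear on their order. Over all genes with at least 1 RPKM in control, that ratio and pectin 3 over pectin 1 went together (Spearman's rho 0.53). Pectin 1 was the highest in 53 members (46.9%), pectin 2 in 33 (29.2%) and pectin 3 in 27 (23.9%), beside 35.3%, 25.9% and 38.8% of the 8421 genes with at least 1 RPKM with pectin. In 73 of 113 members pectin 3 lay under pectin 1, and the median ratio of pectin 3 to pectin 1 was 0.754, beside 1.01 over all genes tested. The 27 members with ratios of at least 10 had a median of 0.638, and 21 of them had less in pectin 3 than in pectin 1.

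The 48 induced genes raised in control 3 had the other order, with pectin 3 the highest in 45 of them and a median ratio of pectin 3 to pectin 1 of 1.40. The limit on control 3 that splits them from the members can bear on this, and the difference was not tested. Within the 113 members the ratio of control 3 to control 1 and the ratio of pectin 3 to pectin 1 went together in part. Of the 73 members with less in control 3 than in control 1, 58 had less in pectin 3 than in pectin 1, while 15 of the other 40 did. A ratio of control 3 to control 1 under 1 was not particular to the members. Its median was 0.824 in them and 0.881 over all genes tested. Across the 113 genes Spearman's rho between both ratios was 0.33, and over 8573 genes with at least 1 RPKM in control and reads in the first libraries it was 0.53; these are descriptions across genes that share the same 4 libraries, and genes are not independent replicates. Same-numbered control and pectin cultures share a number and nothing else that the labels state.

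**Figure D3:**
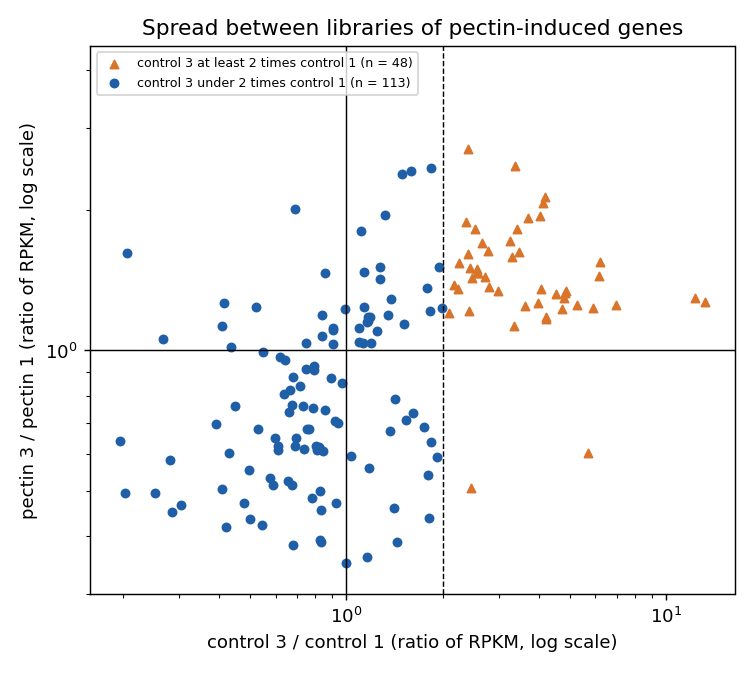
Ratio of control 3 to control 1 (x axis, log scale) and of pectin 3 to pectin 1 (y axis, log scale) in RPKM, with 1 point per gene; blue points are the 113 members and orange triangles the 48 induced genes raised in control 3. The dashed line is the limit of 2 in the rule and solid lines mark 1; of the members left of 1 on the x axis, 58 of 73 lie below 1 on the y axis, and 46 of the 48 triangles lie above it.

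The spread within groups was moderate for most members. The highest pectin library was less than 2 times the lowest in 76 of 113 members and at least 3 times in 6, with a median of 1.70 beside 1.40 over all genes tested. In the 5-exon gene on LHCL01000056 from 184351 to 185948, pectin 1 had 8.91 RPKM against 30.6 in pectin 2 and 22.0 in pectin 3, while controls had 0.84, 1.46 and 1.54 RPKM. In the single-exon gene on LHCL01000010 from 381992 to 383134 it was pectin 3 that stood lowest, with 5.23 RPKM against 13.5 and 19.6. Controls spread over less than 2-fold in 67 members, with a median of 1.86 beside 1.54. The counts behind the lowest values were small: 5 members had fewer than 10 exon reads in some control library, and the smallest such count was 3.

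Members were spread over 65 of the 286 contigs with annotated genes, and 55 of them lie on the plus strand. Even so, 25 of the 113 (22.1%) were direct neighbours of another member, in 11 runs. For comparison, 1.79% of all genes tested had a member next to them, and 3.54% of the 734 other genes that edgeR called higher. A neighbour called higher by edgeR, member or not, was found beside 46 members (40.7%), beside 14.4% of all genes tested and beside 34 of the 48 genes raised in control 3 (70.8%). In all, 8 members (7.08%) were next to a gene raised in control 3, beside 0.599% of all genes tested and 4.22% of the 734 other genes called higher. Of the 48 genes raised in control 3, 21 (43.8%) were next to another of them. No test over genes was made of these shares.

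The run with the highest levels lies on LHCL01000005 from 513423 to 519056. It holds a minus-strand gene with 5 exons, a minus-strand gene with 1 exon from 515697 to 516704, and a plus-strand gene with 5 exons from 517595 to 519056, so that the last 2 face away from each other across 890 bases. The single-exon gene had 10.9, 6.21 and 6.46 RPKM in controls 1 to 3 and 1164, 861 and 598 RPKM with pectin, a ratio of 111. Its divergent partner had 12.3, 7.26 and 8.04 RPKM in control and 445, 379 and 234 RPKM with pectin, a ratio of 38.4. In both genes control 1 and pectin 1 were the highest of their groups, and pectin 3 the lowest pectin library. The first gene of the run went from 6.91 ± 1.22 to 50.2 ± 10.4 RPKM (SD, n = 3 each). Summed over the 3 genes, levels were 30.5, 21.4 and 20.1 RPKM in control and 1671, 1286 and 874 RPKM with pectin. At both sides the next gene was not called: the gene to the left went from 5.21 ± 1.76 to 1.92 ± 0.357 RPKM (edgeR adjusted p = 0.0525) and the gene to the right from 47.6 ± 10.9 to 40.4 ± 8.34 RPKM (edgeR adjusted p = 0.797; SD, n = 3 each).

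On LHCL01000069, 3 of 4 consecutive genes between 44583 and 55777 were members, with ratios of 18.2, 79.4 and 53.9. The 3270-base gene from 46872 to 50244 had 1.76, 0.68 and 0.79 RPKM in control and 74.2, 126 and 56.4 RPKM with pectin. The single-exon gene from 54182 to 55777 had 2.29, 1.39 and 2.08 RPKM in control and 83.3, 142 and 85.9 RPKM with pectin. Pectin 2 was the highest pectin library in both, unlike in the run on LHCL01000005. The gene between them, from 51201 to 52830, was not called and had 5.46 ± 1.22 and 6.12 ± 1.64 RPKM (SD, n = 3 each, edgeR adjusted p = 0.441). Directly to the right a gene of 1425 ± 289 RPKM in control had 1236 ± 238 RPKM with pectin (SD, n = 3 each).

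The contig that carries ZTR_02225 also holds a run of 3 members from 133411 to 138571, with ratios of 16.3, 6.97 and 18.05. Their summed level was 19.8, 6.57 and 7.47 RPKM in control and 205, 106 and 121 RPKM with pectin, with library 1 the highest in both groups. Between ZTR_02225 and this run lie 3 genes that edgeR did not call, with log2 fold changes of 0.44, 0.62 and −0.30. The gene that follows the run after 32 bases, from 138604 to 142055, fell from 5.46 ± 1.17 to 2.12 ± 0.139 RPKM (SD, n = 3 each), and its log2 fold change was −1.22 ± 0.24 (standard error, edgeR adjusted p = 0.0147). It lies on the opposite strand, convergent with the last member.

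On LHCL01000182, 4 of the 5 annotated genes were induced: 3 members and 1 gene raised in control 3. The members had ratios of 4.76, 4.05 and 4.22 and rather even libraries; the pair from 16529 to 20489 summed to 67.3, 70.7 and 66.8 RPKM in control and 280, 257 and 311 RPKM with pectin. The gene at the left end, from 1555 to 3359, went from 28.9 ± 13.5 to 249 ± 48.5 RPKM (SD, n = 3 each), and its control 3 level kept it out of the group. The plus-strand gene in the middle was not called and had 48.6 ± 3.46 and 47.7 ± 10.4 RPKM (SD, n = 3 each, edgeR adjusted p = 0.784).

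The remaining 7 runs differed in which library stood highest. On LHCL01000022 from 269892 to 272977, a tandem pair summed to 16.4, 6.67 and 8.62 RPKM in control and 294, 95.8 and 126 RPKM with pectin, a ratio of 16.3. Library 1 was far above the others in both groups there. On LHCL01000003 from 1147256 to 1154425, 3 genes summed to 21.0, 14.9 and 37.3 RPKM in control and 125, 173 and 82.7 RPKM with pectin. In this run control 3 was the highest control and pectin 3 the lowest pectin library. A divergent pair on LHCL01000012 from 100660 to 106352 went from 6.82 ± 1.64 to 86.8 ± 22.0 summed RPKM, and a divergent pair on LHCL01000048 from 155464 to 158931 from 9.16 ± 1.78 to 45.5 ± 3.97 (SD, n = 3 each). A tandem pair on LHCL01000038 from 40384 to 43613 went from 20.5 ± 4.35 to 129.9 ± 28.4 summed RPKM (SD, n = 3 each). It lies between non-members that edgeR called higher too, from 83.5 to 174 RPKM on the left (edgeR adjusted p = 0.00924) and from 257 to 439 RPKM on the right (edgeR adjusted p = 0.0243). On LHCL01000047 the gene from 135980 described above faces away from a member with a ratio of 3.06 across 8494 bases, and on LHCL01000145 a tandem pair had ratios of 3.18 and 3.20.

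**Figure D4:**
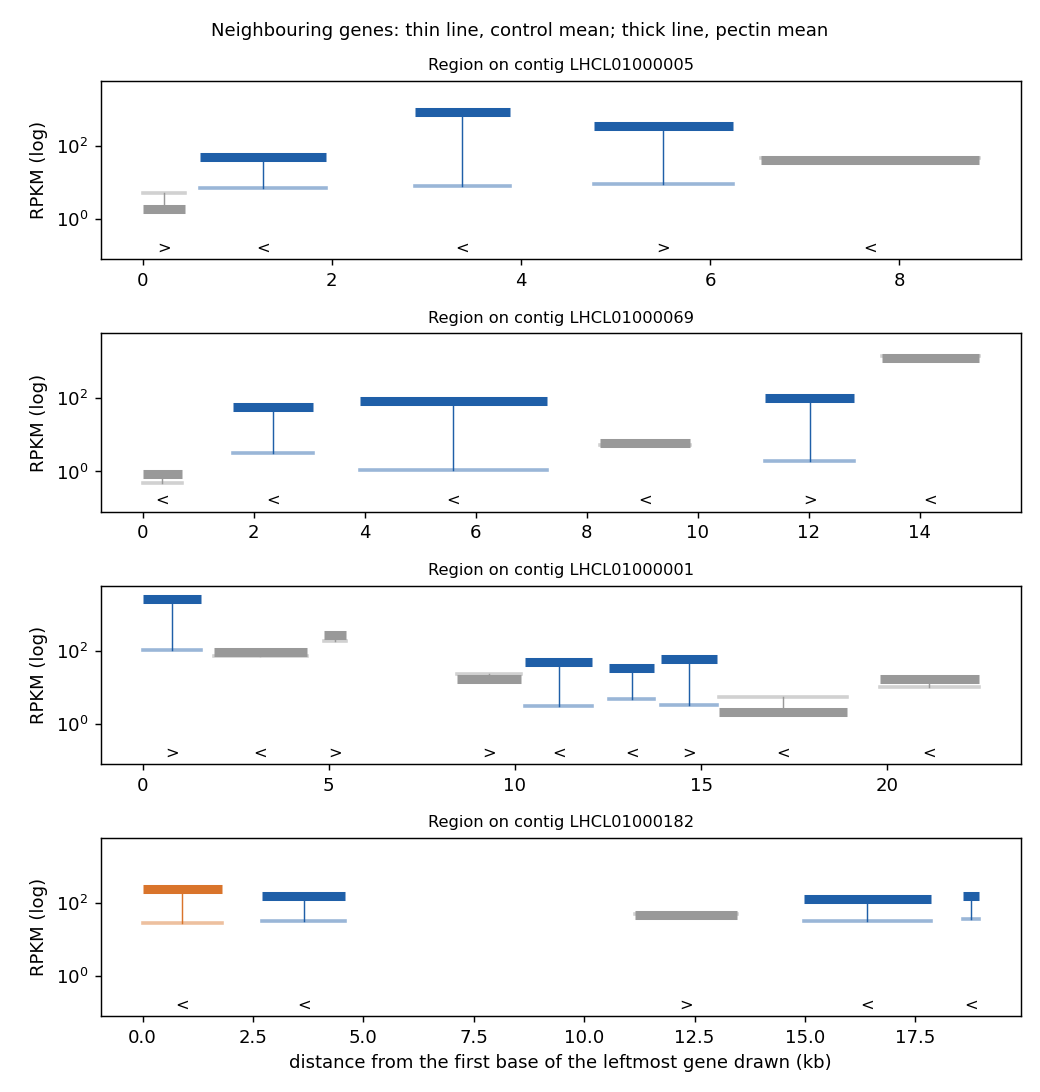
Mean RPKM (y axis, log scale) of neighbouring genes in 4 regions, by distance in kb from the first base of the leftmost gene drawn (x axis); thin lines are control means, thick lines pectin means, and arrowheads give the strand. Blue genes are members, the orange gene is induced but raised in control 3, and grey genes are others; in the top region the 3 blue genes differ between groups by 7.27 to 111 times while the grey genes at both sides were not called.

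Coding lengths and exon numbers of the members were close to those of all annotated genes. The median coding length was 1284 bases in the 113 members and in all 11326 genes, with a range of 240 to 4656 bases in the members. A single exon was annotated in 24 members (21.2%), beside 22.1% of all genes, and 2 exons in 25 (22.1%), beside 22.4%. Genes raised in control 3 had a median of 927 bases. Single-exon members had a median ratio of 5.83 and members with several exons 4.76. Short contigs held 9 members (7.96%), those on contigs with 4 or fewer annotated genes, beside 1.92% of all genes. In all, 15 members (13.3%) were the first or last gene of a contig, beside 4.51% of all genes. In the genes raised in control 3 these shares were 37.5% and 47.9%. These shares were compared without a test.

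Reads that fall inside a gene but outside its annotated exons are counted separately in the files, and they were not used to choose the members. They come from the same libraries, and the exon reads enter every share, so they are given as a description. In the members 24.0 ± 3.31% of gene reads without pectin and 17.5 ± 0.703% of them with it lay outside exons (SD, n = 3 each), beside 17.7 ± 1.85% and 15.1 ± 0.841% over all genes. Single libraries ranged from 20.9% to 27.5% in control and from 16.9% to 18.3% with pectin, without overlap. This separation was not particular to the members. Over all genes the libraries ranged from 16.6% to 19.9% in control and from 14.2% to 15.8% with pectin. In the 48 genes raised in control 3 they ranged from 24.05% to 30.6% in control and from 17.46% to 19.98% with pectin. For the members without ZTR_02225 the mean shares were 24.6% and 19.4%. In the 98 members with at least 20 such reads in control, the CPM of reads outside exons (reads scaled to the gene reads of the library) was a median of 3.26 times higher with pectin, beside 4.58 times for exon reads. Over all genes tested, without that limit on reads, the median ratios were 0.739 outside exons and 0.890 for exon reads, so the smaller ratio outside exons was general. In 88 of these 98 the ratio outside exons was at least 2. The ratio was smaller outside exons than in exons in 84 of the 98 members, and their choice by a high exon level with pectin bears on this.

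A few members departed from this. In the 4-exon gene on LHCL01000052 from 111634 to 113280, exon reads summed over the libraries of a group went from 184 to 700 while reads outside exons went from 92 to 34. The last member of the run on LHCL01000001 went from 230 to 4163 exon reads, but from 383 to 486 reads outside exons, so that their share fell from 62.5% to 10.5%. The first member of the run on LHCL01000005 had 390 and 2747 exon reads, and 333 and 369 reads outside exons. In the 4-exon gene on LHCL01000299 from 2982 to 4516, by contrast, reads outside exons went from 1972 to 20068 and exon reads from 2202 to 13834.

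With pectin, 10 of the 113 members (8.85%) had more reads outside than inside their exons, beside 6.29% of the 8791 genes with at least 60 gene reads. Of these 10, the 5-exon gene on LHCL01000377 from 159 to 1759, the only gene of its contig, had 68.6% of its reads outside exons with pectin, and 0.45% of its exon reads crossed a junction. The 5-exon gene on LHCL01000400 from 137 to 1512, also alone on its contig, had 71.3% outside exons. Their exon levels had ratios of 4.64 and 3.88, and in the first the reads outside exons were 4.29 times higher as well. The 2-exon gene on LHCL01000275 described above had 52.1% outside exons and 0 junction reads among 10596 exon reads. In these genes the annotated exons held the smaller part of the reads of the locus, and the level in RPKM covers that part alone. The smallest member, with 240 coding bases on LHCL01000023 from 243639 to 243962, had 99.3% of its reads outside its exons and was counted on 13 exon reads in control and 59 with pectin.

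**Figure D5:**
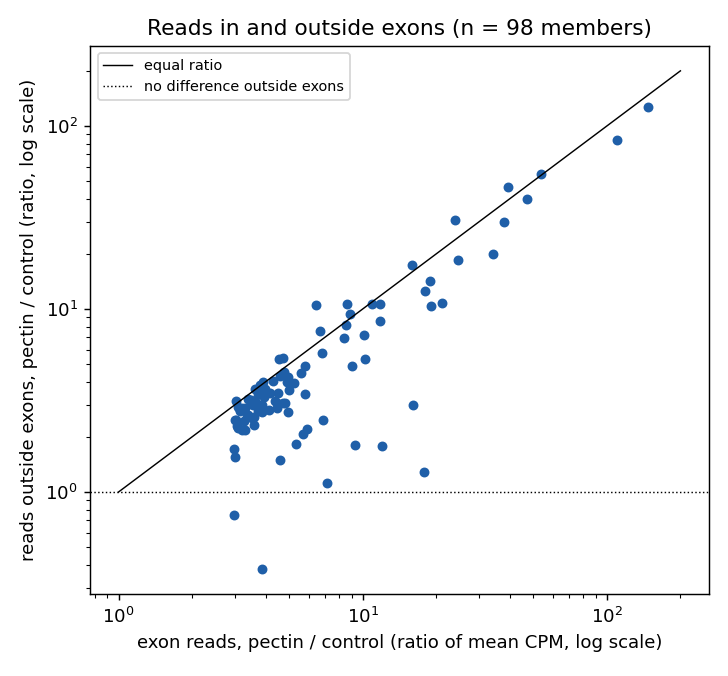
Ratio of pectin to control in exon reads (x axis, log scale) and in reads outside annotated exons (y axis, log scale), each from mean CPM over gene reads, for the 98 members with at least 20 reads outside exons in control. Points below the solid line, 84 of 98, had a smaller ratio outside exons than in exons, and 2 points lie below the dotted line of no difference.

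For the 89 members with several exons, junction reads made up 33.1 ± 2.11% of exon reads without and 45.03 ± 1.45% with pectin (SD, n = 3 each), beside 38.9 ± 0.563% and 40.6 ± 1.17% over all genes with several exons. ZTR_02225, whose reads nearly all cross junctions, set most of this. Without it the shares were 30.2 ± 1.82% and 34.6 ± 0.676% (SD, n = 3 each), and without the 5 most abundant members 32.2 ± 0.261% and 34.5 ± 1.82%. Gene by gene, the share was higher with pectin in 50 of the 84 members with several exons and at least 60 exon reads in each group (59.5%), beside 46.5% of 6520 such genes.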

How the data were processed

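RNA of 3 control and 3 pectin cultures was poly-A selected and sequenced from both ends, per the labels' protocols. No aligner, counter, strand setting or genome build is named in the sources used here. The authors deposited read counts per gene for exons, exon junctions and introns, per the file headers; intron counts are called reads outside exons, since genes with 1 exon have them too. Annotated lengths are all multiples of 3, so they are coding lengths. The authors also deposited RPKM per gene, from which digit separators were removed; recomputed from exon reads and coding length, its scaling total exceeded the reads on genes in each library. Without known strand, reads of a gene and of antisense transcription cannot be told apart.

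The rule was applied to the deposited RPKM. Total exon reads of all genes were fitted with edgeR 4.0.16 in R 4.3.3 by robust quasi-likelihood, with TMM factors, filterByExpr by group, and Benjamini-Hochberg adjustment over the 9177 genes kept, at a threshold of 0.05; the fit was tested on simulated data. Standard errors are the fold change divided by the root of the F statistic. Neighbours are consecutive annotated genes of a contig. Named are the 12 members with the highest pectin mean, the 8 with the largest ratio, and runs of members. A few more genes were picked after their values were seen, for the spread of their pectin libraries or their reads outside exons. The members, lists and comparisons were chosen with earlier results of these data known; gene lists by product could not be applied. Alternatives used DESeq2 1.42.0 and limma 3.58.1. With 3 libraries a group, p-values rest on the spread between these cultures, which the design text calls biological replicates.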

Additional observations from a re-analysis of the deposited data

How the results depend on the processing

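Against 113 members, the rule found 265 genes with a ratio of at least 2, 72 with a ratio of at least 4 and 70 with at least 3 RPKM in control; stricter limits lower these counts by construction. With TMM factors in place of the deposited scaling it found 125 genes, of which 99 were among the 113. Leaving out 1 library gave 100 to 126 genes, of which 95 to 109 were among the 113; without control 1 or control 3 the rule could not be applied. With libraries left out singly, edgeR called 93 to 111 of the 113 higher and the median log2 fold change was 2.30 to 2.51; the share of all tested genes called then ran from 3.50% (without pectin 2) to 10.1%, with 3.57% without control 2 and 4.51% without pectin 1, and the cause was not tested. With library size only, the median log2 fold change of the members was 2.21 and that of all genes −0.21, so that the members stood 2.42 above it. Other choices of scaling, filter and test left 92 to 113 members called, 92 of them with a filter of 10 CPM that kept 93 members. Among all genes tested, 7.54% to 11.6% were called higher with these choices, and 5.94% with library size only. Without control 1 and pectin 1 together, a choice made after seeing the data, 111 members were called, beside 9.45% of all genes tested. The 15 members of the plot by library kept direction and call in all 16 alternatives. Nothing is read from this, because they were picked for a high level or a large ratio with pectin in the same libraries.

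Replicate numbers are shared between groups but are not said to mark pairs. Deviations from the group means correlated at 0.478, 0.0732 and 0.432 for numbers 1 to 3, and because the second was under 0.1 the numbers were not taken as pairs. The deviations within a group depend on each other, so these correlations cannot settle whether the cultures were paired. Each pectin library correlated best with the control of its own number, as did controls 1 and 3, while control 2 correlated best with pectin 3 (0.356). With the replicate number as a block, 112 members were called and their median log2 fold change was 2.405. The share of all genes tested that was called higher was then 12.7%, beside 9.2% without the block.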
